A study of Mus musculus with 6 samples.

Results

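The genes described here are 45 listed cadherins, catenins, desmosomal proteins and proteins that tie these junctions to actin or intermediate filaments, of 19751 genes named on the array. They were chosen by function, with earlier results of these data known, and were read by 56 of the array's 39429 probes. Whole testes of 3 TAp73 KO mice were compared with whole testes of 3 TAp73 WT mice, all male, of strain C57BL/6J and 10 weeks old, each read on its own Agilent array with a single dye. TAp73 stands for the proteins of the gene Trp73 that carry its transactivation domain, and the study's stated subject was adhesion and maturation of sperm cells. Which exons were deleted, by what promoter or Cre if any, and whether the WT mice were littermates is not stated in what was used here.

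Classical cadherins bind the same or a related cadherin on the next cell, and their cytoplasmic tails recruit beta-catenin or plakoglobin, alpha-catenin and p120-catenin, which couple them to actin. Desmosomes use desmosomal cadherins with plakoglobin, plakophilins and desmoplakin to hold intermediate filaments. In the seminiferous tubule, Sertoli cells build a junction found only in testis, the ectoplasmic specialization, in which bundled actin filaments lie between the cell membrane and a flat cistern of endoplasmic reticulum. It anchors the elongating spermatids and forms part of the blood-testis barrier, and its bundles are made and taken apart by bundling proteins such as espin and EPS8 and by the branching Arp2/3 complex.

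Between 74.4% and 84.4% of probes were well above background on an array, 1.59% to 4.45% were saturated, and arrays of a group correlated at 0.987 to 0.996 over probes. KO replicates 1 and 2 and WT replicates 1 and 3 shared 1 slide, and KO replicate 3 and WT replicate 2 the other. Trp73 probe A_52_P193555 read 16.5, 5.77 and 5.86 in KO testes and 528, 524 and 537 in WT testes, a log2 difference of -6.01 (SE 0.41, adjusted p = 0.00369). Probe A_55_P1988133 of the same gene differed by -3.21 (SE 0.15, adjusted p = 0.00213). Probe A_52_P410636 kept more signal, at 544, 445 and 447 in KO testes and 940, 933 and 972 in WT testes. Its difference was -0.99 (SE 0.10, adjusted p = 0.0104). The targeted gene thus read lower in each library labelled KO, by an amount that depended on the probe. Where these probes lie relative to the deletion is not given. In the value table that the authors also deposited, KO and WT labels are exchanged relative to the scanner files. Scanner-file labels are used throughout, and by the table's labels each direction given here would turn round. Of the marker genes of the tissue, 18 of 18 Sertoli, 10 of 10 spermatocyte, 8 of 8 round spermatid and 8 of 8 elongating spermatid genes could be tested. So could 6 of 6 skin and mesothelium markers and 31801 of the array's 39429 probes. These counts therefore do not identify the tissue.

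KO replicate 1 stood apart in part of its area. On KO replicate 1, 748 of 43020 spots had neighbours on the slide whose median lay over 0.5 log2 below the median of the other arrays, against 66 on KO replicate 2, 29 on WT replicate 1 and 0 on the other 3 arrays. For each of the 56 probes 1 spot was examined, although the Cdh1 probe and 1 Dsp probe have 10 spots each. The spots of Ctnna1 and Pkp3 lay in such areas, and no other examined spot did. Results for these genes are therefore given with and without that array, and with such spots left out on every array, an alternative added after the data were seen.

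None of the junction genes differed between KO and WT testes beyond the threshold. A gene was represented by its brightest probe measured on all arrays, and 40 of the 45 could be tested. Of these 40, 0 were lower and 0 were higher at an adjusted p under 0.05 in limma, where 2.64% of the 31801 tested probes of the array were called lower and 0.248% higher. Counting by an unadjusted p under 0.05, 2 genes (5%) were lower and 6 (15%) higher, against 10.9% and 12.3% of all tested probes. All 3 KO arrays lay below all 3 WT arrays for 3 genes (7.5%) and above them for 8 (20%), against 13.1% and 18.6% of the probes with values on all arrays. The shares of junction genes were thus near those of the array or below them. Their differences, KO minus WT, ran from -1.39 to 0.58 on the log2 scale with a median of 0.09, beside a median of 0.06 over all tested probes; 19 lay below 0 and 21 above.

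Under the processing as reported, the intervals also bound how large a difference could have been missed. For 37 of the 40 genes (92.5%) the 95% interval of the difference lay inside a 2-fold change either way, as it did for 90.9% of all tested probes, and for 26 it lay inside 1.5-fold. The 3 exceptions were Ctnna1, Pkp1 and Pkp3. Arpc2 and Plec were saturated on some arrays, so their intervals bound nothing, and without them the counts were 35 of 38 and 25 of 38. Such an interval is for each gene alone and does not show that the levels were equal. It covers the spread between arrays, not the choice of processing. Under normexp, another background correction, Cdh1, Cdh16 and Afdn stood at 0.68, 0.63 and 0.61. Their intervals as reported end at 0.17, 0.37 and 0.36. The median of all tested probes was 0.22 under normexp. In whole testis, fewer cells of a type and less RNA per cell cannot be told apart.

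**Figure D1:**
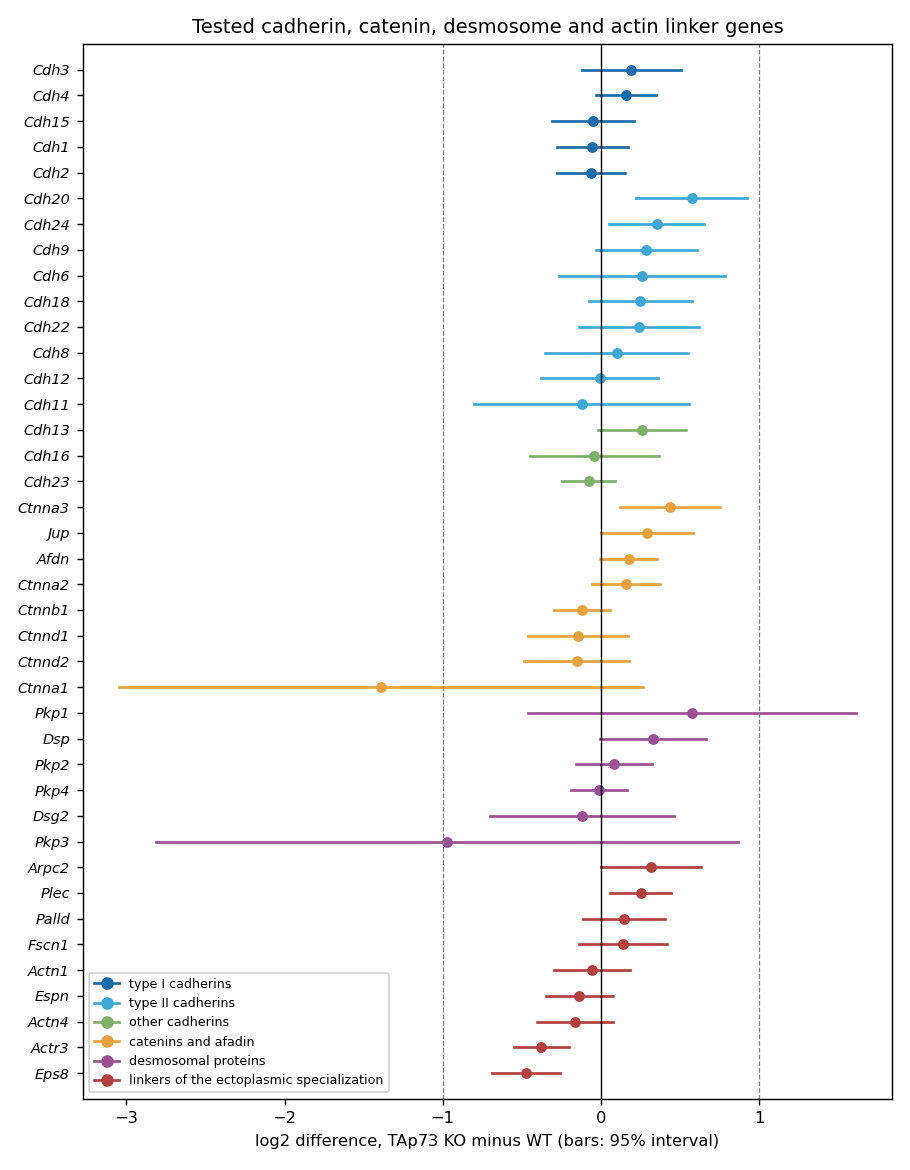
Log2 difference, TAp73 KO minus WT, of the 40 tested genes on the x axis, with bars for the 95% interval from limma (3 arrays each) and colours for the role; dashed lines mark a 2-fold change. Most points lie near 0, Eps8 and Actr3 have short bars left of 0, and the widest bars belong to Ctnna1, Pkp3 and Pkp1.

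The classical cadherins of type I, the best known adhesion receptors of adherens junctions, gave differences of -0.06 to 0.19, none past the test. Signals below are linear and scaled to a common 75th percentile of 4961 units, in the order of replicates 1, 2 and 3, and signals of different probes are not comparable. Cdh2, N-cadherin, which joins Sertoli cells to one another and to germ cells, read 11976, 12831 and 14336 in KO testes and 14112, 13421 and 13239 in WT testes. The groups overlapped, with a log2 difference of -0.06 (SE 0.09, 95% interval -0.28 to 0.15, adjusted p = 0.685); its other probe gave -0.04 (adjusted p = 0.753). Cdh1, E-cadherin, the cadherin of most epithelia, was dim at 74.1, 82.1 and 84.1 in KO testes and 79.3, 90.8 and 79.4 in WT testes. These values overlapped as well, and the difference was -0.05 (SE 0.09, 95% interval -0.28 to 0.17, adjusted p = 0.738). Cdh15, known from skeletal muscle, differed by -0.05 (SE 0.11, adjusted p = 0.788), and Cdh3, P-cadherin, by 0.19 (SE 0.13, adjusted p = 0.384). Cdh4, R-cadherin, read 197, 179.97 and 182 in KO testes and 166, 159 and 175 in WT testes. Its KO arrays all lay above its WT arrays, but the difference of 0.16 (SE 0.08, adjusted p = 0.264) did not pass, and a dimmer Cdh4 probe gave -0.04 (adjusted p = 0.88). All 5 members of this type were tested, and all 5 intervals lay within a 2-fold change.

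Cadherins of type II, a subfamily with a different adhesive interface that is studied mostly in the nervous system, had the highest median of the 6 roles. Of 12 listed, 9 were tested, 7 of them above 0 and 2 below, with a median of 0.25 and no call. Cdh20 read 417, 506 and 438 in KO testes and 249, 336 and 335 in WT testes. Its KO arrays did not overlap its WT arrays, and at 1.49-fold it had the smallest adjusted p of all cadherins tested, with a log2 difference of 0.57 (SE 0.15, 95% interval 0.22 to 0.93, adjusted p = 0.0997). Cdh24 read 110.4, 103 and 124 in KO testes and 78.2, 85.4 and 101 in WT testes. The groups again did not overlap, with a difference of 0.35 (SE 0.12, 95% interval 0.05 to 0.65, adjusted p = 0.173). This signal is dim, and the difference ran from 0.16 to 0.82 over the alternatives. Cdh9 read 884, 1124 and 1007 in KO testes and 715, 915 and 843 in WT testes. Here KO replicate 1 lay below WT replicate 2, and the difference was 0.29 (SE 0.13, 95% interval -0.03 to 0.61, adjusted p = 0.245).

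Cdh18 (difference 0.25, adjusted p = 0.297) and Cdh22 (0.24, adjusted p = 0.373) also lay above 0, and Cdh6, Cdh8, Cdh12 and Cdh11 ran from -0.12 to 0.26. For Cdh11, which is known from mesenchymal cells, 2 probes disagreed in sign, at -0.12 and 0.20 (adjusted p = 0.807 and 0.228). The median over the 9 genes ran from 0.15 to 0.62 over 18 alternatives but depended on the slide. It was 0.36 on slide 1 and -0.09 in the pair of slide 2, where Cdh20 stood at 0.38, Cdh24 at 0.53 and Cdh22 at -0.10. Markers of spermatocytes (10 of 10 tested genes above 0, none called, median 0.21) and round spermatids (8 of 8, none called, median 0.24) also lay above 0. Summed signals of the spermatocyte list were 270895 to 292683 in KO testes and 235972 to 239934 in WT testes, and of the round spermatid list 353228 to 396509 in KO and 314010 to 336461 in WT. Under quantile normalization the marker medians were 0.11 and 0.06 and that of the type II cadherins 0.31, and 2 of the 10 spermatocyte and 4 of the 8 round spermatid genes were saturated on at least 1 array. The saturated spermatocyte genes, Ldhc (on 5 arrays) and Pgk2 (on 6), differed by 0.26 and 0.26. Scaling raises a spot saturated on all 6 arrays by 0.26 log2 in KO arrays. The saturated round spermatid genes, Tssk1, Tssk2, Acr and Spaca1 (on 2, 1, 3 and 4 arrays), differed by 0.26, 0.20, 0.24 and 0.23. They are the brightest in that list's sum. Zpbp, Agfg1, Acrv1 and Izumo1 of the same list were not saturated and differed by 0.25, 0.26, 0.21 and 0.24. In the pair of slide 2 the marker medians were 0.20 and 0.24, beside the -0.09 of the type II cadherins. The part of saturation, scaling or the share of germ cells in any of these values was not tested.

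The remaining cadherins showed no call. Cdh13, T-cadherin, which is held by a lipid anchor in place of a cytoplasmic tail, read 1909.5, 1865 and 1713 in KO testes and 1378, 1448 and 1773 in WT testes. WT replicate 3 lay inside the KO range, and the difference was 0.26 (SE 0.12, 95% interval -0.02 to 0.54, adjusted p = 0.232). Cdh23, a tip-link protein of hair cells in the inner ear, differed by -0.08 (SE 0.07, adjusted p = 0.508), with an interval of -0.24 to 0.09. Cdh16, first described in kidney, was dim at 60.4, 39.8 and 47.4 in KO testes and 51.8, 54.0 and 44.3 in WT testes. Those groups overlapped fully, with a difference of -0.04 (SE 0.17, adjusted p = 0.893).

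Of the 45 genes, 5 could not be tested. Cdh7, Cdh10 and Dsc2, desmocollin 2, were not well above background on any array. Cdh17, a cadherin of the intestine, was well above background on 2 KO arrays and 0 WT arrays, with signals of 17.2, 28.7 and 22.2 in KO testes and 17.0, 22.9 and 20.0 in WT testes that overlapped. Cdh19 was well above background on 1 array, WT replicate 2, where it read 381, against 5.72 to 10.9 on the other 5 arrays.

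Among the catenins, which connect cadherin tails to actin, values leaned neither way, with 4 of 8 below 0, 4 above and a median of 0.02. Ctnnb1, beta-catenin, which binds the cadherin tail and also serves in Wnt signalling, read 11042, 11716 and 10969 in KO testes and 11585, 12363 and 12633 in WT testes. The groups overlapped at WT replicate 1, and the difference was -0.12 (SE 0.07, 95% interval -0.29 to 0.06, adjusted p = 0.358). Ctnna3, alpha-T-catenin, known from heart and testis, read 4279, 3695 and 3542 in KO testes and 3316, 2617 and 2599.98 in WT testes. Every KO array was above every WT array, and the difference of 0.44 (SE 0.13, 95% interval 0.12 to 0.75, adjusted p = 0.131) did not pass. Ctnna2, alpha-N-catenin, named for neural tissue, read 6979, 7149 and 7038 in KO testes and 5749, 6933 and 6344 in WT testes. Its groups did not overlap, with 0.16 (SE 0.09, adjusted p = 0.313) for this probe and 0.37 (SE 0.13, adjusted p = 0.164) for the other. Jup, plakoglobin, which serves both adherens junctions and desmosomes, read 933, 965 and 1021 in KO testes and 926, 783 and 692 in WT testes. Every KO array was above every WT array, though KO replicate 1 and WT replicate 1 were nearly equal, and the difference was 0.29 (SE 0.12, 95% interval 0.00 to 0.58, adjusted p = 0.215). Afdn, afadin, which links nectins to actin, read 244, 226 and 229 in KO testes and 209, 213 and 196 in WT testes. These groups did not overlap either, with a difference of 0.18 (SE 0.07, adjusted p = 0.221). Ctnnd1, p120-catenin, which holds cadherins at the membrane, differed by -0.15 (SE 0.13, adjusted p = 0.51) and its neural relative Ctnnd2 by -0.15 (SE 0.14, adjusted p = 0.516).

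Ctnna1, alpha-E-catenin, the alpha-catenin of epithelia, had the lowest difference of all 40 genes, and its size depends on 1 array. It read 2570.01, 17243 and 12764 in KO testes and 21012, 21902 and 22034 in WT testes. All KO arrays lay below all WT arrays, but KO replicate 1 lay far below the other KO arrays, and the difference of -1.39 (SE 0.68, 95% interval -3.04 to 0.27, adjusted p = 0.266) did not pass. On KO replicate 1 the spots around it had a median deviation of -1.17 log2 from the other arrays, against -0.05 to 0.26 around the same place on the other 5 arrays, and its local background was 162 units, against 21 to 35. Without KO replicate 1 the difference was -0.54 (adjusted p = 0.102), and it was -0.55 (adjusted p = 0.112) with spots in displaced areas left out on every array. The pair of slide 2, which does not hold that array, gave -0.78.

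**Figure D2:**
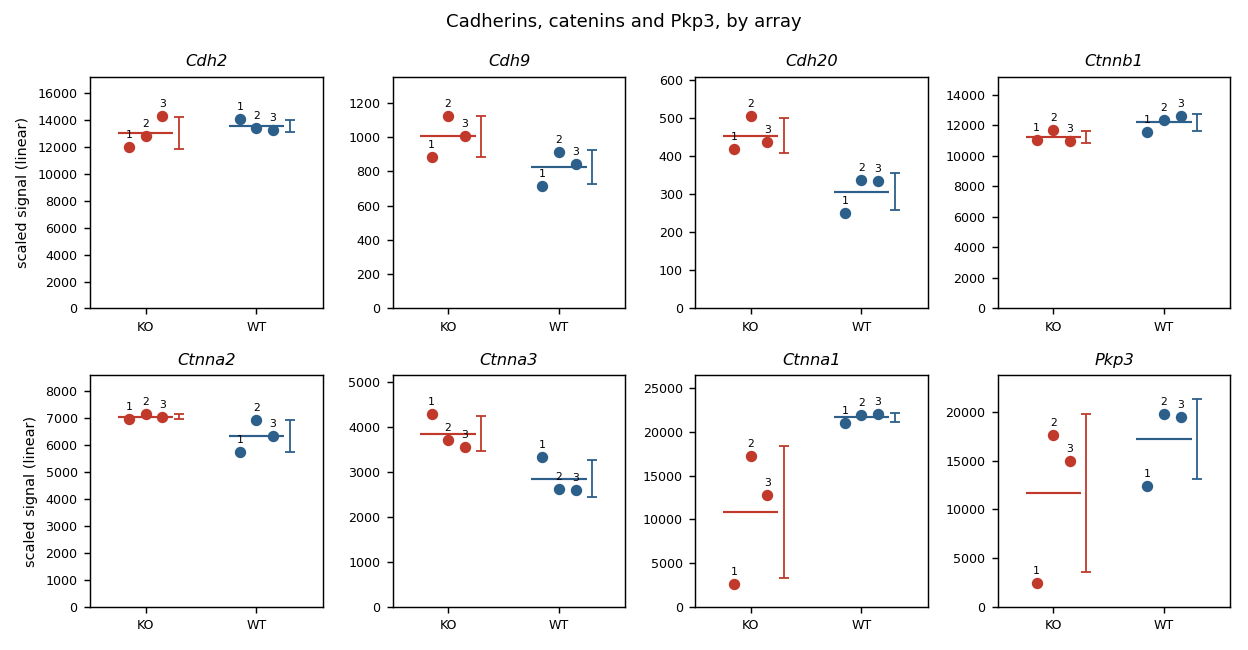
Scaled linear signal (y axes, from 0) of 7 cadherin and catenin genes and Pkp3 on each array, KO left and WT right, with the replicate number above each point, a line for the mean and a bar for the SD (n = 3). KO replicate 1 lies far below the others for Ctnna1 (2570 on the scaled signal) and Pkp3 (2404), while Cdh20 and Ctnna3 have KO and WT points that do not overlap.

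Desmosomal genes gave no call, and 2 of the 6 tested had intervals that reached past a 2-fold change. Dsp, desmoplakin, which binds intermediate filaments to the plaque, read 259.9, 284 and 310.4 in KO testes and 199.5, 272 and 213 in WT testes. WT replicate 2 lay inside the KO range, and the difference was 0.33 (SE 0.14, 95% interval -0.01 to 0.66, adjusted p = 0.221). Dsg2, the desmoglein of simple epithelia, was near the detection limit, well above background on 2 arrays of each group. It read 38.1, 29.0 and 39.2 in KO testes and 27.3, 41.2 and 49.5 in WT testes, values that overlapped, with a difference of -0.12 (SE 0.24, adjusted p = 0.775). Pkp2, the plakophilin of heart and simple epithelia, read 1069, 1141 and 1021 in KO testes and 904, 1055 and 1098 in WT testes. The groups overlapped, with a difference of 0.08 (SE 0.10, 95% interval -0.16 to 0.32, adjusted p = 0.624). Pkp4, which is also found at adherens junctions, differed by -0.01 (SE 0.07, adjusted p = 0.919). Pkp1, the plakophilin of stratified epithelia, read 417, 247 and 205 in KO testes and 102, 242 and 258 in WT testes. KO replicate 1 was the highest and WT replicate 1 the lowest, the other 4 arrays lay close together, and the difference was 0.58 (SE 0.43, 95% interval -0.46 to 1.61, adjusted p = 0.429). On these 2 arrays the spots around it deviated the same way, by 0.41 log2 on KO replicate 1 and -0.35 on WT replicate 1, under the limit of 0.5. The difference was 0.28 without KO replicate 1, 0.15 without WT replicate 1 and -0.24 in the pair of slide 2, which holds neither.

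Pkp3, a plakophilin present in most desmosomes, had a low KO mean that depends on KO replicate 1. It read 2404, 17628 and 14929 in KO testes and 12439.8, 19776 and 19427 in WT testes. The neighbours of its spot on KO replicate 1 had a median deviation of -2.06 log2, against -0.05 to 0.18 on the other arrays, and the local background there was 65 units, against 11 to 33.5. The difference of -0.97 (SE 0.76, 95% interval -2.81 to 0.87, adjusted p = 0.452) became -0.05 without KO replicate 1 (adjusted p = 0.905) and -0.05 with the displaced spots left out (adjusted p = 0.902). The pair of slide 2 gave -0.41. Around the other 54 examined spots of listed genes the deviation of the neighbours ran from -0.35 to 0.41 over all arrays, both ends being those of Pkp1.

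**Figure D3:**
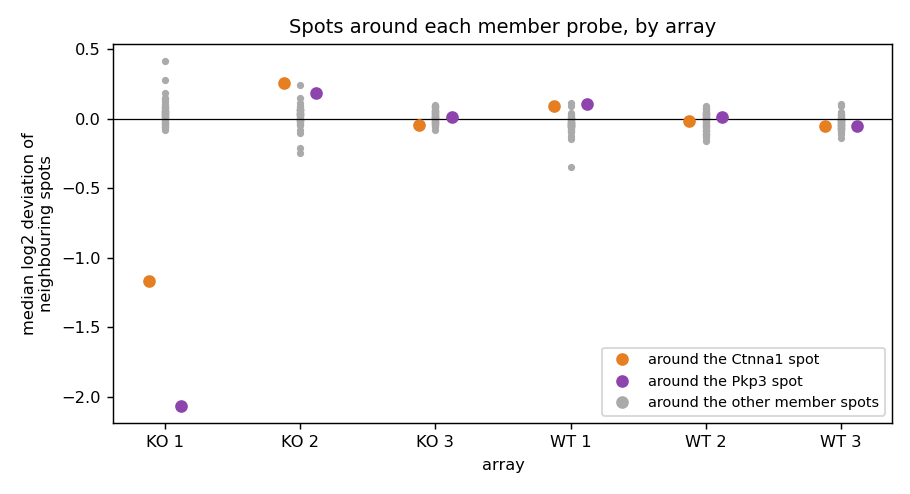
Median log2 deviation of the spots surrounding each listed gene's spot (y axis) from the median of the other 5 arrays, by array, KO left of WT. The areas around Ctnna1 (orange, -1.17) and Pkp3 (purple, -2.06) are low on KO replicate 1 only. The areas around the other 54 examined spots (grey), 1 per probe, lie within 0.5 of 0 on every array.

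The genes nearest the threshold were 2 actin regulators of the ectoplasmic specialization, both lower in KO testes. Eps8, which caps and bundles actin filaments, read 3410.2, 2912 and 2887 in KO testes and 4248, 4307 and 4184 in WT testes on probe A_55_P1982454. Every KO array was below every WT array, and the KO level was 1.39-fold lower, with a log2 difference of -0.47 (SE 0.09, 95% interval -0.69 to -0.26, adjusted p = 0.0522). The gene has a second, much dimmer probe, A_55_P2155479, which read 209, 94.3 and 80.3 in KO testes and 115, 138 and 121 in WT testes; its groups overlapped, with a difference of -0.09 (SE 0.35, adjusted p = 0.883). Actr3, the ARP3 subunit of the Arp2/3 complex, which starts branched actin filaments, read 4274, 4251 and 3947 in KO testes and 5279, 5586 and 5334 in WT testes. Again no KO array reached a WT array, and the difference was -0.38 (SE 0.07, 95% interval -0.55 to -0.20, adjusted p = 0.0539), a 1.30-fold lower level.

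Neither gene passed as the comparison was set up, and whether they passed depended on the processing. Eps8 was below 0.05 under 5 of 19 tested alternatives, with adjusted p from 0.0203 to 0.537, and Actr3 under 4 of 19, from 0.0296 to 0.537. Both were lower in KO testes under all of them. With slide as a block the adjusted p was 0.104 for Eps8 and 0.109 for Actr3. On slide 1 the differences were -0.42 (adjusted p = 0.462) and -0.32 (adjusted p = 0.473), and in the pair of slide 2 they were -0.58 and -0.50. Without KO replicate 1, Eps8 differed by -0.55 (adjusted p = 0.0436) and Actr3 by -0.40 (adjusted p = 0.0878). With the displaced spots left out, which removed no spot of either gene, the adjusted p was 0.0341 and 0.0425.

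**Figure D4:**
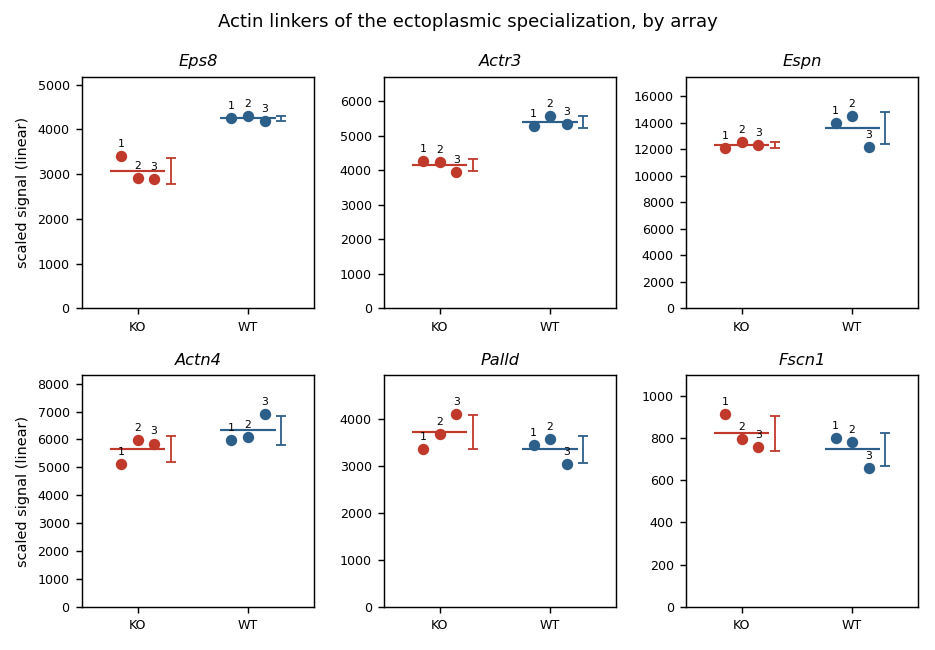
Scaled linear signal (y axes, from 0) of 6 actin linkers on each array, KO left and WT right, with replicate numbers, a line for the mean and a bar for the SD (n = 3). KO and WT points are apart for Eps8 and Actr3 and overlap for Espn, Actn4, Palld and Fscn1.

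**Figure D5:**
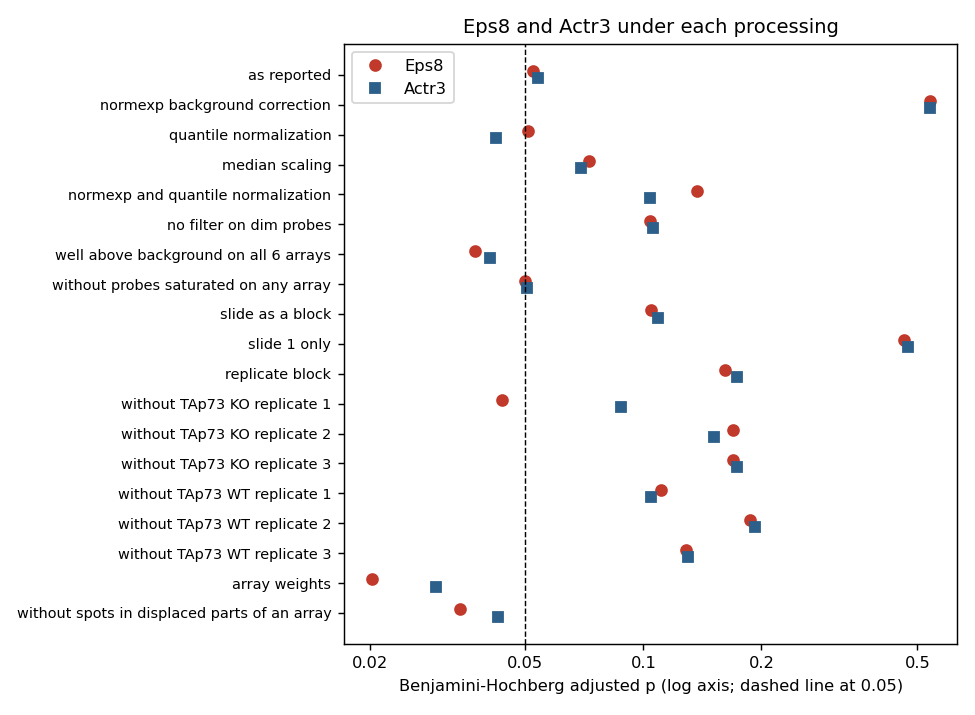
Adjusted p from limma (x axis, logarithmic) of Eps8 (red circles) and Actr3 (blue squares) as reported, at 0.0522 and 0.0539, and under each alternative processing that ran across all probes (y axis). The points straddle the dashed line at 0.05, from 0.0203 for Eps8 with array weights to 0.537 for both under normexp background correction.

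The other filament linkers did not pass either, and the KO and WT arrays of 6 of these 7 overlapped. Espn, espin, the bundling protein for which the ectoplasmic specialization is best known, read 12124, 12552 and 12313 in KO testes and 14011, 14541 and 12213 in WT testes. WT replicate 3 lay inside the KO range, and the difference was -0.14 (SE 0.09, 95% interval -0.35 to 0.08, adjusted p = 0.371); the other probe gave -0.24 (SE 0.12, adjusted p = 0.271). Espn lies 19 tested genes from Trp73 along chromosome 4. Actn4, an alpha-actinin that crosslinks actin, read 5119.9, 5968 and 5853 in KO testes and 5965, 6094 and 6909.5 in WT testes, which overlapped, with a difference of -0.16 (SE 0.10, adjusted p = 0.344), and its relative Actn1 differed by -0.06 (SE 0.10, adjusted p = 0.74). Palld, palladin, a scaffold and crosslinker of actin bundles, read 3366, 3682 and 4102 in KO testes and 3443, 3569.7 and 3035 in WT testes. The groups overlapped, with a difference of 0.15 (SE 0.11, 95% interval -0.11 to 0.41, adjusted p = 0.416). Fscn1, fascin, which packs actin into tight parallel bundles, read 913, 794 and 755 in KO testes and 801, 779.6 and 656 in WT testes, and also overlapped, with a difference of 0.14 (SE 0.12, 95% interval -0.14 to 0.42, adjusted p = 0.478).

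For 2 linkers the scanner's upper limit bounds what can be read. Arpc2, another Arp2/3 subunit, was saturated on 3 KO and 2 WT arrays. Its signals before scaling were 63283, 67974 and 66352 in KO testes and 61239.8, 65712 and 62657 in WT testes, and no fold is given. Plec, plectin, which ties intermediate filaments to junctions, was saturated on 1 KO and 2 WT arrays and read 69232, 77324 and 75442 in KO testes and 60562, 65590.5 and 60327 in WT testes. The groups did not overlap, with a difference of 0.25 (SE 0.08, adjusted p = 0.149). The 75th percentile used for scaling was 0.26 log2 higher in WT than in KO arrays, so a spot at the limit on all arrays reads that much higher in KO after scaling. Under quantile normalization Arpc2 was at 0.07 and Plec at -0.0017 log2, and both are among the 6 listed genes above 0 by unadjusted p.

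Actr3 and Arpc2 belong to a complex of which 6 further subunit genes are given. Of these 6, 2 passed the test, where 2.64% of all tested probes were called lower. The further genes were added after their values were seen, so their counts and median are no independent comparison. Arpc1b fell to 8075, 8247 and 8082 in KO testes, against 11921, 13508 and 13584 in WT testes, a difference of -0.67 (SE 0.08, adjusted p = 0.0154). Arpc5 fell to 12475, 12028 and 11663 in KO testes, against 16998, 18335 and 15779 in WT testes, a difference of -0.50 (SE 0.08, adjusted p = 0.039). For both, KO and WT arrays did not overlap. Arpc3 has 3 probes and Arpc4 and Arpc5 have 2 each, and only the probe that represents each gene is given. Actr2, the ARP2 subunit, Arpc4 and Arpc3 also had KO arrays all below the WT arrays, at -0.33, -0.30 and -0.23 log2 (adjusted p = 0.0953, 0.171 and 0.205), and did not pass; over all probes with values on all arrays, 13.1% had such groups. Arpc1a, the other form of the Arpc1 subunit, overlapped at 0.03 (SE 0.08, adjusted p = 0.823), and Arpc5l, a relative of Arpc5 not counted among the 8, was at 0.14 (SE 0.11, adjusted p = 0.463). Over the 8 genes, which include the saturated Arpc2 and leave out Arpc5l, the median was -0.31. It ran from -0.36 to -0.25 over 18 alternatives and was -0.29 on slide 1 and -0.33 in the pair of slide 2. Arpc1b was called in 11 of these 18 alternatives and Arpc5 in 5; with slide as a block their adjusted p was 0.0487 and 0.0852.

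Some markers of Sertoli cells and of macrophages fell in the same arrays, where 2.64% of all tested probes were called lower and 40.4% lay below 0. Lower calls also stood in 1 of 7 tested Leydig, 1 of 7 endothelial, 1 of 6 peritubular myoid and 1 of 8 epididymis markers. The medians of these lists were -0.29, -0.17, -0.05 and -0.03. With slide as a block the endothelial and epididymis calls stayed and the Leydig and myoid calls did not. No marker of spermatocytes, spermatids, spermatogonia or skin was called. Of 18 Sertoli cell markers, all tested, 4 fell, 16 lay below 0 and the median was -0.38. With slide as a block 1 of the 4 was called, Sox9 (adjusted p = 0.0487), while Vim, Aard and Gata1 were not (adjusted p = 0.0683, 0.0889 and 0.0996). The summed signal of the 18 markers was 213400 to 226237 in KO testes and 249981 to 273509 in WT testes. That sum includes Clu, saturated on all 6 arrays, at 57235 to 74682 in KO and 51862 to 61549 in WT testes. It also includes Cldn11, which read 7276 on KO replicate 2, against 16894 and 16513 on KO replicates 1 and 3. Of 8 tested macrophage markers 3 fell, which were also called with slide as a block, 8 lay below 0 and the median was -0.52, with a summed signal of 17710.0 to 19803 in KO and 27156 to 29878 in WT testes. No tested Sertoli or macrophage marker was at 0. The part of any of these cell types in the values of Eps8, Actr3 and the Arp2/3 subunits was not tested.

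Genes outside the 45 that work at the same junctions were read from lists chosen by function, with earlier results of these data known. Their counts are given beside the 2.64% lower and 0.248% higher calls over all tested probes and are no independent comparison. Of 24 further actin regulators, 3 fell and 0 rose, with a median of -0.20; beside Arpc1b and Arpc5 the call was Ezr, ezrin, which links actin to the membrane, at -0.82 (SE 0.10, adjusted p = 0.0154) and with an adjusted p of 0.0487 with slide as a block. Of 15 kinases and adaptors of the ectoplasmic specialization, 2 fell and 0 rose, with a median of -0.15. They were Itga6, the integrin alpha chain found at the apical ectoplasmic specialization, and the small GTPase Rhob. Itga6 read 3985, 3666 and 3420.3 in KO testes and 6423, 6571 and 6222 in WT testes. The groups were well apart, with a difference of -0.80 (SE 0.08, adjusted p = 0.0114), and Rhob differed by -0.63 (SE 0.10, adjusted p = 0.0318). With slide as a block Itga6 was called (adjusted p = 0.0379) and Rhob was not (adjusted p = 0.0729). Of 10 further catenin partners, 2 fell and 0 rose, with a median of -0.11. Ctnnal1, a relative of alpha-catenin, read 3469.6, 3446 and 3048 in KO testes and 5499.9, 5607 and 5454 in WT testes, and its groups did not overlap. Its difference was -0.74 (SE 0.08, adjusted p = 0.0124), and that of Zyx, zyxin, a protein of actin-bound adhesion sites, was -0.55 (SE 0.08, adjusted p = 0.0282). Blocking by slide kept Ctnnal1 (adjusted p = 0.0386) and lost Zyx (adjusted p = 0.0722). Ctnnal1 and Rhob have 2 probes each, and only the probe that represents each gene is given.

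Adhesion receptors beyond the listed cadherins were read from 2 lists. Of 26 tested members of the wider cadherin superfamily 2 fell and 0 rose, with a median of 0.03. They were Fat1, a giant protocadherin, at -0.64 (SE 0.10, adjusted p = 0.0294), and the calsyntenin Clstn2 at -0.53 (SE 0.10, adjusted p = 0.0484). Neither was called with slide as a block (adjusted p = 0.0729 and 0.081), and Clstn2, which was dim, lay above 0 under 1 of 18 alternatives. Of the 4 nectins, which bind afadin and join spermatids to Sertoli cells, 0 fell and 0 rose, with a median of 0.08. Nectin3, known from spermatids, read 21434, 21154 and 22464 in KO testes and 20878, 18699.6 and 18880.2 in WT testes. Its KO arrays lay above its WT arrays and the difference was 0.16 (SE 0.08, adjusted p = 0.269). Nectin2, known from Sertoli cells, read 12949, 16125 and 15136 in KO testes and 15866, 16430.1 and 19516 in WT testes, which overlapped, with a difference of -0.23 (SE 0.12, adjusted p = 0.294). Nectin2 has 2 probes, and only the probe that represents it is given. Of 6 tested further desmosome and plaque genes 0 fell and 0 rose, with a median of -0.12. In limma, taking an unadjusted p under 0.05, 1 of these 6 desmosome genes was lower and 0 of the nectins, with 0 of both lists higher.

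TAp73 is a transcription factor that binds the DNA element shared by the p53 family, so the promoters of the listed genes were searched for its consensus half-site, a motif of 10 letters that is its own reverse complement and was therefore searched once for both strands. Promoters were taken from RefSeq on build GRCm38.p6, from 250 bases before to 50 after a gene's start, and 28 of the 45 genes had 39 of them. The half-site stood in 3 of the 39 (7.69%), against 8.36% of all 32851 promoters. Those of Ctnnd2, Dsp and Palld are shown with the half-site in capitals, and that of Actr3, the gene nearest the threshold with a listed promoter, without a match. They lie at chr15:30172284-30172583 on the plus strand, chr13:38151044-38151343 on the plus strand, chr8:61760040-61760339 on the minus strand and chr1:125435678-125435977 on the minus strand, and Palld has 3 promoters, of which 1 matched.
Ctnnd2: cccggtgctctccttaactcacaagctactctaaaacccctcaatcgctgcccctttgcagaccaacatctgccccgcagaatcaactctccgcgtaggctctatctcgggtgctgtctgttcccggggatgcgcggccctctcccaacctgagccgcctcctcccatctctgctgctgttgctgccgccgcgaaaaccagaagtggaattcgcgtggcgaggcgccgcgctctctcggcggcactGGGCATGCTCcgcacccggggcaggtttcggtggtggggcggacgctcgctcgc
Dsp: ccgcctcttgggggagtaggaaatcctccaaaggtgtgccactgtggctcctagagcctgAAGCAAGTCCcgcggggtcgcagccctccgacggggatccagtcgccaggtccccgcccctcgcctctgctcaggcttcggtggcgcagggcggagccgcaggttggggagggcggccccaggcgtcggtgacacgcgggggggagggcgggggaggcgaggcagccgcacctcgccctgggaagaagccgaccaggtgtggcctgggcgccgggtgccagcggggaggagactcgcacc
Palld: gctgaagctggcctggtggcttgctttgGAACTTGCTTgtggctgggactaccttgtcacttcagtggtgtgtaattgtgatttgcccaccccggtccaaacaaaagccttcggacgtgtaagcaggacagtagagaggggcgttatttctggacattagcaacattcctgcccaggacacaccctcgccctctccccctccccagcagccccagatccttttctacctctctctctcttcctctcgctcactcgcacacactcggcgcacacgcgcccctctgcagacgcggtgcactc
Actr3: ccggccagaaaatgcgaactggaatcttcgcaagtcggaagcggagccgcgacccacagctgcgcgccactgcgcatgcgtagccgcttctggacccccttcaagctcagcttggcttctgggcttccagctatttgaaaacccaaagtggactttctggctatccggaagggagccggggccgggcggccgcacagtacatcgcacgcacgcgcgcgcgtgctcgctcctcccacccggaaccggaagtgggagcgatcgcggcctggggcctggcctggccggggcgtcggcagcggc
Counted from the gene's start, the half-sites begin at offset -4 in Ctnnd2, -190 in Dsp and -222 in Palld. None of these 3 genes passed the test, at -0.15, 0.33 and 0.15 log2. A match is a string of letters, not a bound site, and its absence says only that the letters are not in this window.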

How the data were processed

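RNA of 6 whole testes was read on 1-colour Agilent arrays, 1 array per mouse. Feature Extraction 10.7.3.1 produced the scanner files, per the file headers, and the values deposited by the authors are linear spot intensity after background subtraction, with flags for spots that are saturated, uneven or well above background. The submitters' processing notes name limma. Of the spots of an array, 1377 control spots were dropped and 163 to 280 flagged as uneven or as outliers were set to missing. Log2 intensity was averaged per probe and each array's 75th percentile subtracted. Probes well above background on 3 or more of the 6 arrays, with 2 or more values per group, entered a two-sided limma fit (version 3.58.1, R 4.3.3, lmFit and eBayes) with genotype as its term and Benjamini-Hochberg adjustment over all 31801 and 0.05 as the threshold. All adjusted p-values are limma's; n = 3 per group. The code was tested on simulated data.

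Genes were named by matching the array's accessions to RefSeq. The 45 genes and the further lists were chosen with earlier results of these data known. Named over the alternatives are 32 listed genes. For each role they hold up to 5 tested genes with the smallest p. Cdh1, Cdh2, Ctnnb1, Dsg2, Dsp, Espn, Eps8, Palld, Actr3, Fscn1 and Plec were taken in any case. Cdh6, Cdh8, Cdh11, Cdh12, Ctnnd1, Ctnnd2, Pkp4 and Actn1 are described only as reported. From further lists the plan was at most 3 called genes by p, and others, such as Gata1, Ldhc, Pgk2 and Zpbp, are also named. Arp2/3 subunits, nectins and untested genes were added after their values were seen. No set test was run. The neighbourhood of a spot covers 10 rows and 5 columns either side. Normexp was planned on mean spot signals and used the median spot signal and median background (offset 50), since the mean is not among the columns used here. Where the mice came from separate litters is not stated, so p-values measure the spread between these samples. The number of arrays limits the precision.

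Over probes, deviations from the mean of all arrays correlated at 0.968 to 0.994 between each scanner file and a value-table column of the other label, and at -0.403 to -0.271 with the column of its own label. The table's intensity values are linear, with column medians of 554.0 to 554.2; how the authors normalized it is not stated.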

Additional observations from a re-analysis of the deposited data

How the results depend on the processing

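Of 603 values of 32 named genes under an alternative that gave a test, 27 changed sign, in 9 genes. Of the 32 values in the pair of slide 2, which gave no test, 7 changed sign: Cdh2 (0.095), Cdh3 (-0.061), Cdh18 (-0.012), Cdh22 (-0.10), Pkp1 (-0.24), Pkp2 (-0.047) and Fscn1 (-0.045). Over both, 18 genes kept their sign throughout. The 27 values were, under normexp, Cdh1 0.68, Cdh15 0.29, Cdh16 0.63, Cdh23 0.30 and Dsg2 0.78, where the median of all tested probes was 0.22; under quantile normalization Cdh15 0.018, Cdh23 0.000718 and Plec -0.0017; under median scaling Cdh1 0.0088, Cdh2 0.000202, Cdh15 0.012 and Cdh16 0.021, with a median over all probes of 0.12; under normexp with quantile normalization Cdh1 0.010, Cdh23 0.0091, Arpc2 -2.2e-05 and Plec -0.0084. On slide 1 alone Cdh15 was 0.046 and Cdh16 0.032. Leaving out 1 array in turn gave Cdh1 -0.09 to 0.011, Cdh15 -0.13 to 0.016, Cdh16 -0.20 to 0.10, Dsg2 -0.36 to 0.067 and Pkp2 -0.000623 to 0.14.

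Over all probes, 838 were called lower and 79 higher (91.4% lower). The counts were 0 and 0 under normexp (810 and 1075 by unadjusted p under 0.05), 868 and 217 under quantile normalization (80.0% lower), 569 and 143 with median scaling (79.9%), 405 and 91 with normexp and quantile normalization, 349 and 13 with no filter on dim probes, and 1109 and 165 with probes well above background on all 6 arrays. They were 299 and 15 with slide as a block, 0 and 0 on slide 1 alone (1813 and 1336 unadjusted) and 1486 and 339 with array weights. Leaving out 1 array gave 117 to 418 lower and 7 to 28 higher. Each such fit also has fewer arrays, so the drop cannot be laid to the array left out. Without KO replicate 1, the counts were 418 and 28. The value table under its own labels gave 217 lower and 877 higher. Same-numbered KO and WT arrays did not deviate together (correlations -0.090 to -0.025). Whether the numbers pair the mice cannot be decided from this, since mice paired by litter or day need not deviate together over probes. With a replicate block 9 probes were lower and 1 higher, and 0 of the listed genes.

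Listed genes called lower numbered 0 as reported and 0 to 1 with 1 array left out (Eps8 without KO replicate 1). They numbered 1 under quantile normalization (Actr3), 1 without saturated probes (Eps8), and 2 (both) with probes well above background on all arrays, with array weights, and with displaced spots left out, an alternative added after the data were seen. The value table called 1 gene higher by its own labels, Actr3. The listed genes' median of 0.09 was 0.30 under normexp, -0.065 in the value table and -0.067 in the slide 2 pair. The causes were not tested. Saturated probes bound Arpc2 and Plec, and dim signal limits Dsg2, Cdh1, Cdh6, Cdh16, Cdh18 and Cdh24.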
